A study of Caenorhabditis elegans with 2 samples.

Results

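The SmY RNA genes of Caenorhabditis elegans were taken as all genes whose name starts with smy- in the Ensembl annotation of the WBcel235 assembly, which is the same as ce11. There were 12 such genes, smy-1 to smy-12, of 46926 annotated genes. The annotation classes 10 of them as snRNA genes and smy-2 and smy-3 as snoRNA genes. Binding of SNPC-4 at these genes was read from chromatin immunoprecipitation and sequencing (ChIP-seq) of whole young adults, both sexes together, in 2 replicates numbered as biological in the labels. All animals were of strain YL457, with the allele unc-119(ed3) on III and the integrated transgene vrIs87. Per the labels, vrIs87 carries unc-119(+) and a fusion of GEI-11, an older name of SNPC-4, with GFP behind the pie-1 promoter, a promoter known for germline expression. Another label describes a GFP-FLAG tag at the C terminus, and it is unsettled which description holds. There was 1 group and no treatment or control group, so the members were compared with the rest of the annotated genes, and the control experiment that the labels mention was not used here. Whole animals hold many cell types, and a DNA-binding assay has no transcript levels by which to check them.

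SmY RNAs are short nuclear RNAs of nematodes that carry a binding site for the Sm protein ring, as spliceosomal snRNAs do. They associate with proteins also found with spliced leader RNAs, the donors of the short leader that trans-splicing joins to the front of many worm mRNAs. SNPC-4 is the worm counterpart of SNAP190, the largest protein of SNAPc, the complex that switches on snRNA transcription. In animals SNAPc binds a proximal sequence element upstream of snRNA genes.

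The 12 genes were 72 to 90 bp long and formed 5 loci, when members less than 10000 bp apart were joined. On IV, smy-7 lay alone, smy-2 and smy-1 had starts 373 bp apart, smy-8, smy-10 and smy-9 spanned 1355 bp, and smy-11 and smy-12 had starts 757 bp apart. On V, smy-3, smy-4, smy-5 and smy-6 spanned 4945 bp from first to last start. Of the members, 7 lay in introns of protein-coding genes and 5 between genes. The intronic members were smy-1 and smy-2 in C33A12.3, smy-11 and smy-12 in Y57G11C.38 and smy-6 in D1086.2, all on the strand of the host, and smy-4 and smy-5 in D1086.8 on the opposite strand. None of the 12 overlapped an annotated UTR.

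The upstream sequences held a block of 25 bases that could be aligned in all 12 members, printed here because it lies where most summits fell. Capitals mark those bases that match the commonest base at the 14 positions where at least 11 of the 12 members agree. Sequences are from the WBcel235 assembly, 5′ to 3′ on the strand of the gene, and the order is by pooled ChIP signal, with smy-5, which had no pooled summit, last.
smy-3 (chrV:14092506-14092530, plus strand): GCggAACCCtcgAgatGTcCGgaCA
smy-1 (chrIV:9511878-9511902, minus strand): GCgaAACCCgtgAttcGTcCGtaCA
smy-2 (chrIV:9511507-9511531, minus strand): GCggAACCCggcAgatGTcgGttCA
smy-8 (chrIV:13600786-13600810, plus strand): GCgaAACCCgccAtgtGccCGtaCA
smy-9 (chrIV:13602140-13602164, plus strand): GCtaAACCCgcattgcGTcCGtaCA
smy-11 (chrIV:14863925-14863949, plus strand): GCggAACCCgtgAggtGTaCGtaCA
smy-10 (chrIV:13601574-13601598, plus strand): cgcgAgCCCgcgAaacGTcCGtttA
smy-7 (chrIV:6460797-6460821, minus strand): GCggAACCCacaAggtGTaCGtaCA
smy-12 (chrIV:14864683-14864707, plus strand): GCgaAACCCgtgAggtGTaCGtaCA
smy-6 (chrV:14097553-14097577, minus strand): GCggAACCCgtcAagtGTaCGgaCA
smy-4 (chrV:14094732-14094756, minus strand): GCggAACCCacaAggtGTaCGtaCA
smy-5 (chrV:14096504-14096528, minus strand): GCggAACCCacaAagtGTaCGtaCA

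The blocks of smy-4 and smy-7 were identical, although smy-7 had a thresholded summit and smy-4 had none. This contrast was not the same in both replicates: by the 1648 strongest peaks of its own list, replicate 1 bound smy-7 and not smy-4, and replicate 2 bound smy-4 and not smy-7. The block of smy-5, also without a thresholded summit, matched all 14 conserved positions, as did those of 8 members in all. The most divergent was that of smy-10, with 10 of 14. The centre of the block lay between -54 bp (smy-3) and -45 bp (smy-4 and smy-7) from the annotated start, negative positions being upstream. The whole blocks ran from -66 bp at the farthest to -33 bp at the nearest.

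Of the RNAs themselves, 4 are printed to show the strongest member, a similar pair that differed in binding and the most divergent member. Capitals mark the Sm-site letters ATTTTTG, searched on the strand of the gene only.
smy-3 (chrV:14092572-14092651, plus strand): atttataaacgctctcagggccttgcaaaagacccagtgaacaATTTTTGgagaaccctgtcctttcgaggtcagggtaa
smy-7 (chrIV:6460683-6460764, minus strand): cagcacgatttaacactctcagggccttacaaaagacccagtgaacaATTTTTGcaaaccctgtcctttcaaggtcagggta
smy-5 (chrV:14096389-14096465, minus strand): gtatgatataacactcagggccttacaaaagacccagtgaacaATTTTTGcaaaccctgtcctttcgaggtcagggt
smy-10 (chrIV:13601636-13601725, plus strand): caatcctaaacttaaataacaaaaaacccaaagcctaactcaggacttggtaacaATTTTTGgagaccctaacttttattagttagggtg

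Every one of the 12 RNAs held ATTTTTG exactly 1 time, as against 1.69% of 1541 other annotated genes of 72 to 90 bp. Between RNAs, identity in a global alignment ran from 54.9% to 89.3% over 66 pairs, with a median of 72.7%. The closest pair was smy-6 and smy-7, on different chromosomes. For the 100 bases upstream, the median identity over the same pairs was 54.9%, and the closest pair was smy-4 and smy-7 at 83.3%. The RNA of smy-10 was the farthest from the others, with at most 64.8% identity to any, that of smy-8.

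A gene was counted as bound when a summit of the authors' thresholded set of 1648 peaks lay within 500 bp of its annotated start. By this rule 10 of the 12 SmY RNA genes were bound (83.3%, exact 95% binomial interval 51.6 to 97.9%), all but smy-4 and smy-5. Over all annotated genes the share was 5.11%, and over genes other than piRNA genes 6.13%. Among the 10 members annotated as snRNA, 8 were bound. All 8 members on IV were bound, where 8.72% of genes other than piRNA genes were. Of the 4 members on V, smy-3 and smy-6 were bound, where 3.57% of such genes were.

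With the 1648 strongest peaks of each replicate's own list, replicate 1 bound 10 members against 5.15% of all genes, and replicate 2 bound 9 against 5.36%, a mean of 79.2% ± 5.89 (SD, n = 2). The count common to both replicates was 8. Replicate 1 bound the same 10 genes as the thresholded set, while replicate 2 lacked smy-6 and smy-7 and held smy-4. In the longer pooled list of 30000 peaks and background regions, 11 members had a summit within 500 bp, but so did 46.6% of all genes, so a summit there says little. The full lists of replicate 1 and replicate 2, also of 30000 each, had summits at 11 and 12 members.

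Each peak carries a signal, the authors' own value, on a scale that the deposited files leave unstated. Ranks are therefore given beside it, rank 1 being the strongest of a list. Signals of different lists may not share a scale, and depth is unknown. For the thresholded peaks, the ranks in the thresholded set and in the pooled list were the same.

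The strongest signal among the members was at smy-3, the first gene of the locus on V. Its summit had a pooled signal of 465 (rank 58), 258 in replicate 1 (rank 59) and 204 in replicate 2 (rank 61), a mean of 231 ± 38.5 (SD, n = 2). It lay at -52, -52 and -40 bp in these 3 lists. The position and the rank thus moved little between lists. The same summit lay at -272 bp from the start of the protein-coding gene D1086.3.

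The next gene of that locus, smy-4, had no thresholded summit. Its strongest pooled summit, at 120 bp, past the end of the gene, had a signal of 21.7 (rank 4200). Replicate 1 gave 3.96 at 250 bp (rank 21594), and replicate 2 gave 21.2 at 65 bp (rank 1376), a mean of 12.6 ± 12.2 (SD, n = 2). The replicates differed 5.35-fold, and smy-4 was the only one of 11 members with both values at which replicate 2 had the higher signal. The pooled summit nearest to the block of smy-4, at -79 bp, had a signal of 5.31 (rank 27651).

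At smy-5 no summit lay within 500 bp in the thresholded, pooled or replicate 1 lists. Replicate 2 had 1 summit at -410 bp with a signal of 8.08 (rank 8511). The last gene, smy-6, had a pooled signal of 39.9 (rank 1469) at -68 bp, near the lowest signal in the thresholded set of 36.6. The replicates gave 36.0 at -44 bp (rank 631) and 11.1 at -187 bp (rank 4744), a mean of 23.5 ± 17.6 (SD, n = 2). Of the bound members smy-6, at rank 1469 of 1648, was the nearest to the threshold, and of those outside it the nearest was smy-4, well below at rank 4200. Of the 4 genes on V, only smy-3 was strong in both replicates.

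At the paired genes smy-1 and smy-2 a single peak of 724 bp held 2 thresholded summits. The stronger, with a pooled signal of 409 (rank 65), lay between the genes, at -100 bp from smy-2 and 273 bp from smy-1, past the 3′ end of smy-1. In the replicates it had 201 (rank 76) and 189 (rank 69), a mean of 195 ± 8.61 (SD, n = 2), at -65 and -31 bp from smy-2. The weaker had a pooled signal of 138 (rank 210) at 45 bp, inside smy-1. In the replicates, the summit nearest to the start of smy-1 had 53.1 at -115 bp (rank 335) and 48.1 at -84 bp (rank 336), a mean of 50.6 ± 3.54 (SD, n = 2), upstream of the gene in both. Replicate 2 also had a summit of 97.0 (rank 132) between the genes, higher than the 48.1 upstream of smy-1. It lay at 136 bp from smy-1, past its 3′ end, and at -237 bp from smy-2. Replicate 1 had no such summit, and the mean of 50.6 leaves it out. Given to the nearest start, the stronger thresholded summit belonged to smy-2 and the weaker to smy-1.

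In the locus of smy-8, smy-10 and smy-9 each gene had its own thresholded summit upstream. At smy-8 the pooled signal was 264 (rank 100), with 149 and 128 in replicates 1 and 2 (mean 138 ± 14.6, SD, n = 2), at -43, -31 and -41 bp. At smy-10 it was 142 (rank 205), with 80.9 and 68.2 (mean 74.5 ± 8.98, SD, n = 2), at -49, -57 and -15 bp. At smy-9 it was 215 (rank 124), with 138 and 71.1 (mean 105 ± 47.3, SD, n = 2), at -65, -32 and -25 bp. The order of smy-8 above smy-9 above smy-10 was the same in the pooled list and both replicates. In replicate 2, smy-9 and smy-10 were 71.1 and 68.2, a smaller gap than the spread of smy-9 between replicates.

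In the intronic pair smy-11 and smy-12 the upstream gene had the higher signal. At smy-11 the pooled signal was 148 (rank 192) at -27 bp. The replicates gave 98.5 at -27 bp (rank 150) and 50.2 at 90 bp (rank 315), a mean of 74.3 ± 34.2 (SD, n = 2), so replicate 2 placed the summit past the end of the gene. At smy-12 the pooled signal was 65.7 (rank 639), with 40.4 and 30.0 (mean 35.2 ± 7.31, SD, n = 2), at -30, -50 and -18 bp. The isolated smy-7 had a pooled signal of 77.6 (rank 484) at -44 bp. Its replicates gave 47.1 at -53 bp (rank 406) and 13.3 at 71 bp (rank 3333), a mean of 30.2 ± 23.9 (SD, n = 2).

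**Figure D1:**
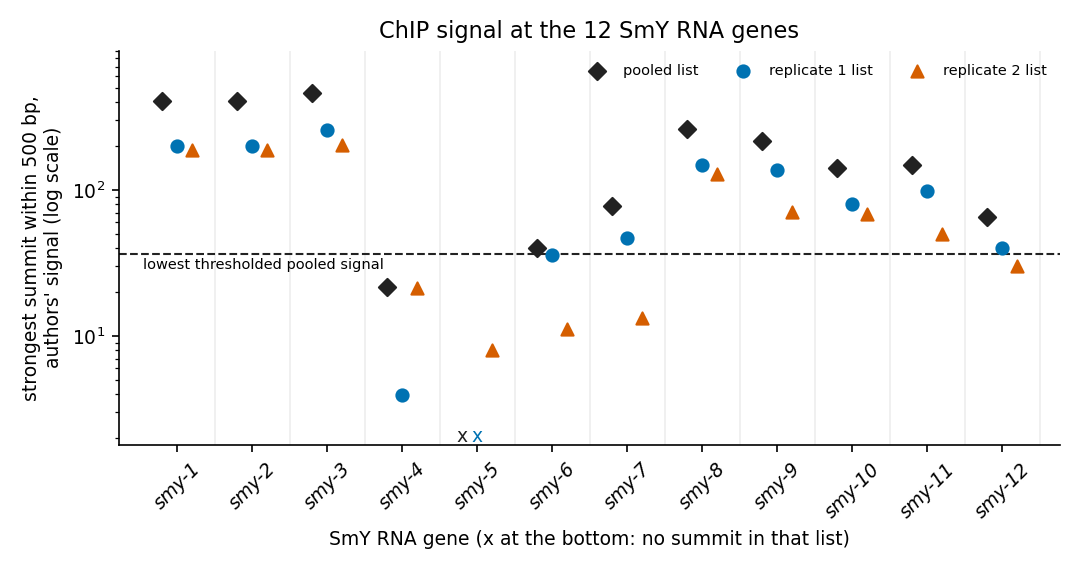
The authors' signal of the strongest summit within 500 bp of each start is plotted on a log scale for the pooled list and each replicate's own list, with x where a list had no summit and a dashed line at the lowest thresholded signal, 36.6. Signals ran from 465 at smy-3 to 21.7 at smy-4 in the pooled list, and the replicates lay farthest apart at smy-4, smy-7 and smy-6.

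By pooled signal the order was smy-3, then smy-1 and smy-2 with the summit they share, smy-8, smy-9, smy-11, smy-10, smy-7, smy-12, smy-6 and smy-4. Between neighbours such as smy-11 and smy-10, at 148 and 142, the pooled difference was smaller than the SD of smy-11 between replicates. At 10 of the 11 members with a value in both replicates, replicate 1 had the higher signal, though the 2 lists may not share a scale. By rank, replicate 2 placed smy-4, smy-1, smy-2 and smy-8 higher than replicate 1 did. The ranks in replicates 1 and 2 were 76 and 69 at smy-1 and smy-2, and 100 and 97 at smy-8. The ratio between replicates ran from 1.06 at smy-1 and smy-2 to 5.35 at smy-4, with 3.55 at smy-7 and 3.24 at smy-6.

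**Figure D2:**
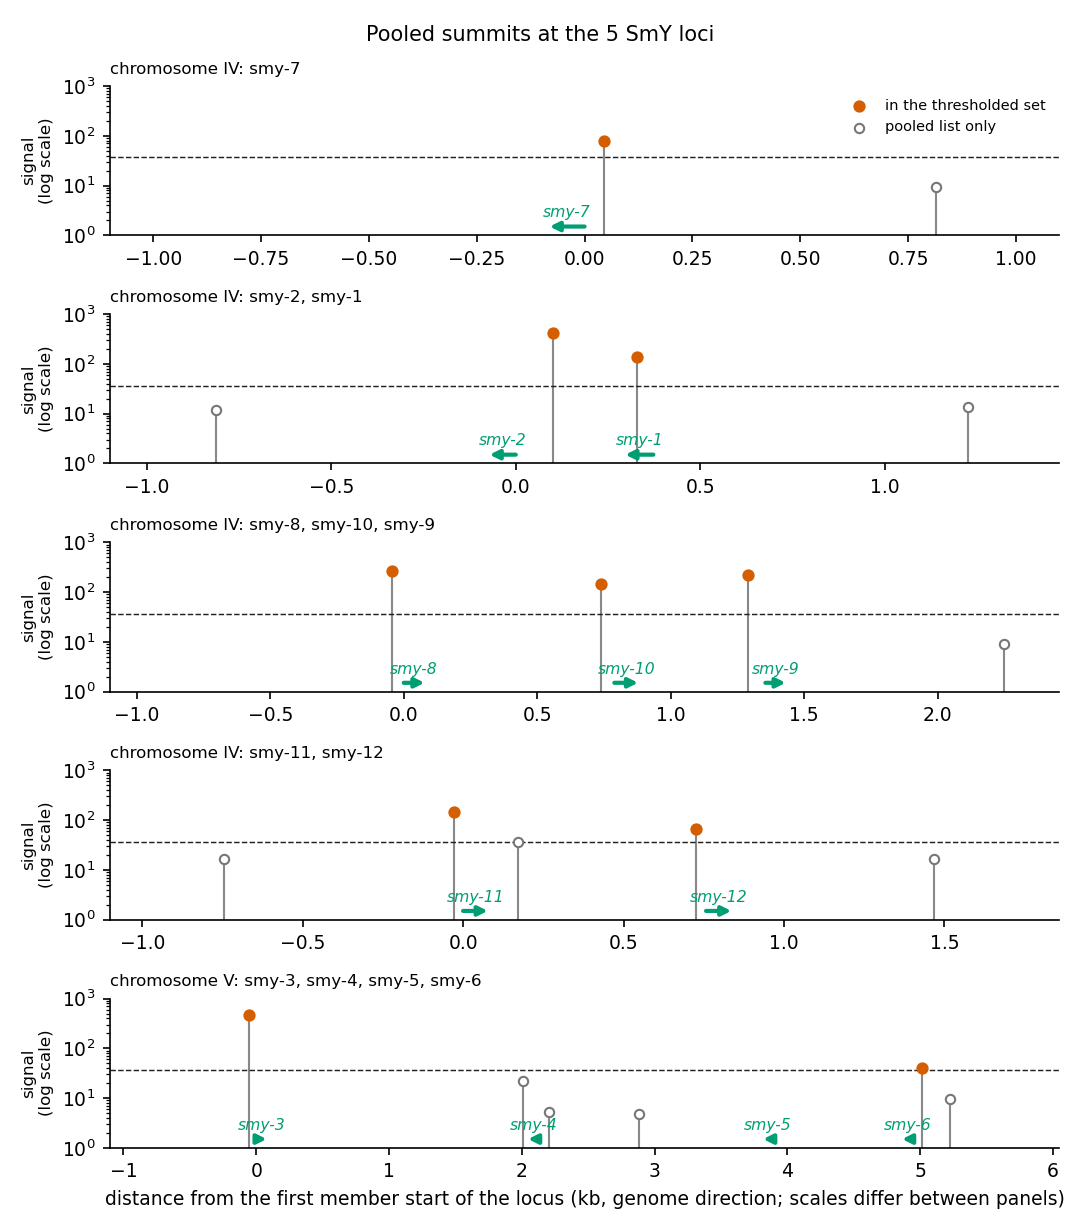
Pooled summits within 1000 bp of a member are drawn by distance from the first member start of each locus, with the authors' signal on a log scale, arrows for the genes and a dashed line at the lowest thresholded signal. Filled points, the thresholded summits, stand by smy-7, smy-1 and smy-2, smy-8 to smy-12, smy-3 and smy-6, and none stands by smy-4 or smy-5.

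Within 10000 bp of the 5 loci there were 11 thresholded summits in all, and 10 of them lay within 500 bp of a member. The remaining 1 was in the locus of smy-1 and smy-2. Each of the 10 bound members was the nearest member to 1 of the 10 summits.

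The strongest thresholded summit lay at a median of -46.5 bp from the start of the 10 bound members, with quartiles of -61.75 and -33.25 bp. It was within 100 bp upstream at 9 of them, the exception being smy-1. By each replicate's 1648 strongest peaks the medians were -47 bp in replicate 1 and -18 bp in replicate 2. In replicate 2 the strongest summit was within 100 bp upstream at 6 of its 9 bound members.

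Measured from the centre of the shared block instead, the nearest thresholded summit was within 25 bp at 8 of the 10 bound members, with a median distance of 17 bp. At smy-3, smy-7, smy-8 and smy-10 it was within 6 bp. At smy-2 it was 47 bp and at smy-1 96 bp away, the 2 genes that share a peak. For the replicates the full lists of 30000 were used, which also hold weak summits, such as that of smy-5 in replicate 2 (rank 8511). In replicate 1 the distance was at most 25 bp at 9 of 11 members with a summit. In replicate 2 it was so at 4 of 12, and the medians were 12 and 34 bp.

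**Figure D3:**
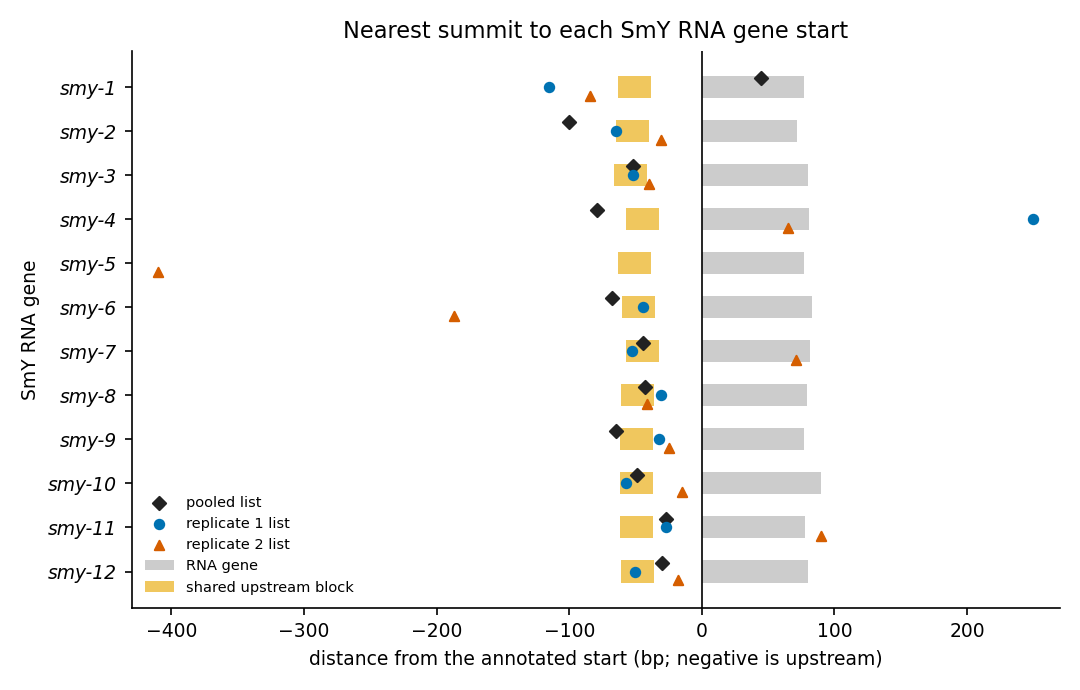
The nearest summit to each start is plotted in bp from the start, negative upstream, for the pooled list and both replicates, over the shared upstream block and the RNA gene. Most pooled summits fall on or beside the block, centred -54 to -45 bp from the start, while replicate 2 lies past the start at smy-4, smy-7 and smy-11.

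Beside the 10 of 12 SmY RNA genes, 17 of 18 SL2 RNA genes, 11 of 13 U1 genes, 10 of 12 U5 genes and 4 of 5 U4 genes were bound, and the exact intervals of these shares overlap. The U1, U2, U4, U5 and U6 genes are annotated snRNA genes that were sorted here by short core sequences of each RNA, not by the annotation. Of the SL1 RNA genes 0 of 12 were bound, which allows a share of up to 26.5% by the exact interval. In the pooled list 0 of them had a summit either, beside 46.6% of all genes and 31.1% of genes other than piRNA genes. Whether their sequence is unique in the genome was not examined, so lost reads and missing binding cannot be told apart there. Of U2 genes 10 of 20 were bound (27.2 to 72.8%), and of U6 genes 8 of 24 (15.6 to 55.3%), beside 51.6 to 97.9% for the SmY RNA genes. The median signal percentile within the thresholded set was 90.5 at bound SmY RNA genes, 95.1 at SL2 RNA, 91.8 at U5, 90.0 at U1, 89.9 at U6, 89.0 at U4 and 80.2 at U2 genes. Median summit positions were -46 bp at SL2 RNA, -51 bp at U1, -52 bp at U5, -53 bp at U4, -35.5 bp at U6 and -3 bp at U2 genes, the last with quartiles of -46.25 and 68.75 bp. No test was made between classes, since genes of a class share their ancestry and often their sequence. The intervals count each copy as a separate gene, so their overlap does not show whether shares differ.

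**Figure D4:**
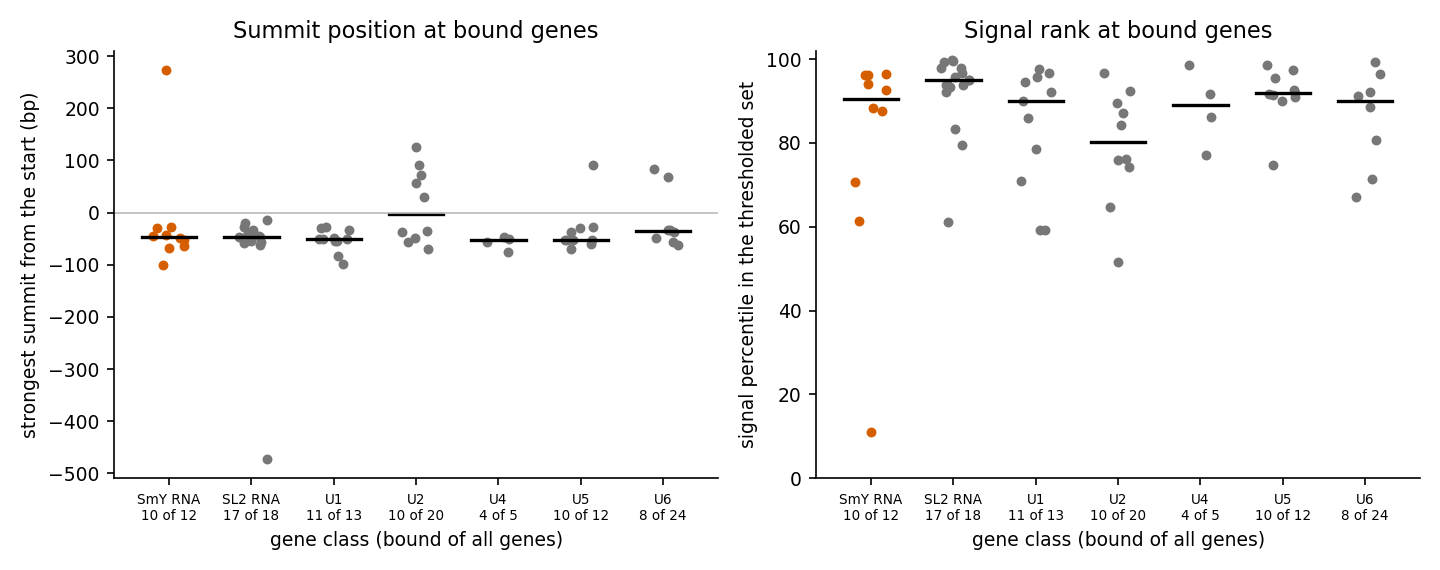
Each point is a bound gene, with the strongest summit position on the left, its signal percentile in the thresholded set on the right, and a bar at each class median. Of the 10 bound SmY RNA genes, in orange, 9 sit within 100 bp upstream, as do most SL2 RNA, U1, U4 and U5 genes, and smy-1 is at 273 bp, and smy-6 has the lowest percentile of the genes shown, 10.9.

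The block was then looked for in the 100 bases upstream of all genes, on either strand, counting how many of the 14 conserved positions the best window matched. A match of at least 10, the lowest value among the members, was found at 1.69% of 46920 genes, at 6.60% of bound genes and at 1.42% of unbound genes. All 12 members reach it by construction. So did all 13 U1 genes, all 5 U4 genes, 11 of 12 U5 genes and 14 of 18 SL2 RNA genes, but 6 of 20 U2, 8 of 24 U6 and 0 of 12 SL1 RNA genes. On the strand of the gene, the median centre of the block at the genes that held it was -51 bp at SL2 RNA and U4, -50 bp at U5 and U2, -48 bp at U1 and -59 bp at U6 genes, beside -50 bp at SmY RNA genes.

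Over the 7 other classes, 48 of 56 genes with the block on their strand were bound, as were 12 of 48 genes without it. The genes without it include all 12 SL1 RNA genes, of which 0 were bound. Among the 20 U2 genes, 4 of 6 with the block were bound, and so were 6 of all the others. Among the 24 U6 genes, 6 of 7 with it were bound, and 2 of all the others. Block and gene class thus cannot be told apart in the sum. All 14 conserved positions were matched at 15 genes of the genome on their own strand, 8 of them SmY RNA genes, and 12 of the 15 were bound. Genes whose windows overlap, such as a piRNA gene beside a member, are counted separately. The unbound ones were smy-4, smy-5 and a snoRNA gene. The 2 octamers held by the most members, GCGGAACC and CGGAACCC, lie in the block and overlap by 7 bases. Each was found in 7 of 12 members, on either strand, and in 0.183% and 0.166% of all genes. A match of letters is a description and not a binding site.

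**Figure D5:**
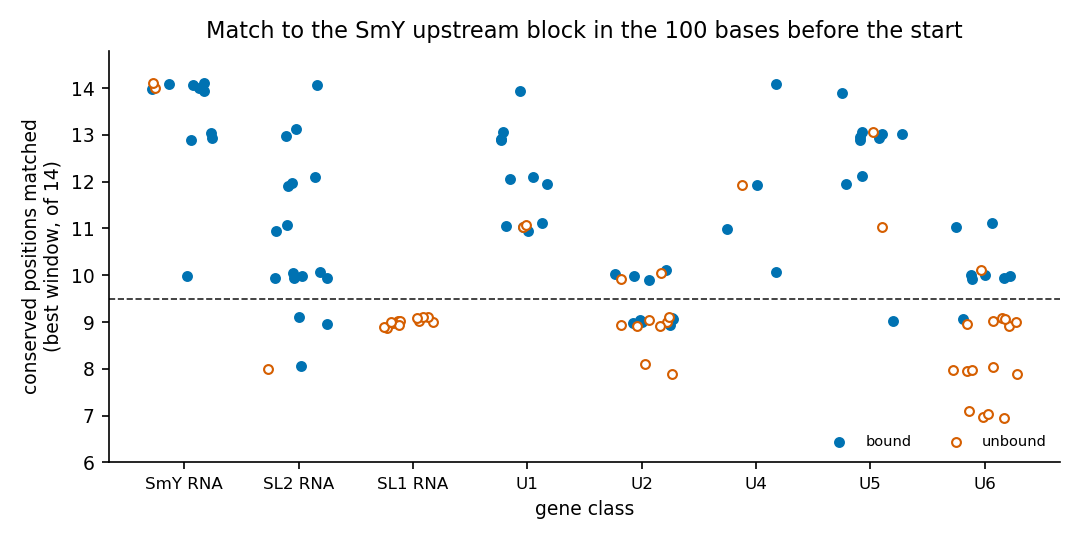
The best match to the 14 conserved positions in the 100 bases upstream is plotted for each gene of 8 classes, with filled points for bound and open points for unbound genes, small random offsets and a dashed line below a match of 10. SmY RNA genes reach 10 to 14 by construction, U1, U4 and U5 genes mostly lie at 11 to 14, and all SL1 RNA genes lie at 9.

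Reads from near-identical copies can be lost or shared in mapping, and the authors' handling of such reads is not given in the files. Within 200 bp of the start, all 32-base words were unique in the genome at 7 members, smy-1, smy-2, smy-3, smy-8, smy-9, smy-10 and smy-12. The unique share was 89.5% at smy-5, 92.7% at smy-7, 95.4% at smy-4, 95.7% at smy-11 and 98.6% at smy-6. The 7 members with only unique words were all bound in both replicates. Of those with repeated words, smy-5 had no pooled summit and smy-4 no thresholded summit, though replicate 2 bound smy-4. Replicate 2 did not bind smy-6 and smy-7, and smy-11 was bound in both replicates. The part of repeated words in these signals was not tested.

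Several summits lay near other starts too. The summit of smy-8 lay within 500 bp of the start of the pseudogene WBGene00045045, at -368 bp, and that of smy-9 at -482 bp from the protein-coding gene Y45F10B.59. The summits of smy-8, smy-9, smy-10, smy-11 and smy-12 also lay within 500 bp of annotated piRNA starts, 3, 2, 1, 6 and 8 of them. At smy-6 and smy-7 no other start lay within that distance of the thresholded summit.

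Over 4 fixed lists of genes whose proteins act with SmY RNAs, spliced leader RNAs or SNAPc, 4 of 19 annotated genes were bound, beside 4.04% of protein-coding genes. By the 1648 strongest peaks of each replicate the counts were 3 and 4. Of the 7 Sm protein genes snr-1 to snr-7, 2 were bound (2 in replicate 1 and 3 in replicate 2). The summit at snr-4, with a signal of 810 (rank 24), lay at -339 bp from its start but at -56 bp from that of the U4 gene T11F9.15. The summit at snr-1, with 83.0 (rank 428), lay at -391 bp, and at -220 bp from the protein-coding gene snx-13. Both summits were thus nearer to another gene than to the Sm protein gene.

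Of sna-1, sna-2 and sut-1, which encode proteins of the SmY and spliced leader particles, 0 of 3 were bound in the thresholded set and in either replicate. Of the assembly factor genes smn-1 and smi-1, smn-1 was bound with 50.9 at -144 bp (rank 982), and its summit lay at -72 bp from the start of klp-16. It was not among the 1648 strongest peaks of replicate 2, where its rank was 2352. Of 10 SNAPc gene names listed, 7 were in the annotation, and of these snpc-3.4 was bound, with 45.4 at 35 bp (rank 1183). In replicate 1 its rank was 1658, just past the 1648 peaks kept, and in replicate 2 it was 1389.

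Among the 71 other snRNA and SL RNA genes of the named classes with a summit in the pooled list and both replicates, the genes closest in rank to the median bound member, by the mean absolute difference of log10 rank over these lists, were Y69A2AR.36 (U5), F11A5.14 (U2), F10D2.13 (U4), F40G12.13 (U1) and the U2 gene WBGene00014311, 1 of several copies named C47F8.9. The ranks of Y69A2AR.36 were 165, 162 and 209, beside 154, 128 and 209 for the 10 bound members, each the median of their log10 ranks turned back into a rank. The difference ran from 0.044 to 0.0924 over these 5 genes.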

How the data were processed

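ChIP-seq peak lists of 1 group of 2 replicates were used on the ce11 build; the lists on ce10 were not used here. The authors called peaks per replicate and on both replicates pooled, per the deposited text records, and deposited a thresholded set. Aligner, peak caller, threshold and read depth: not given in the sources used here. The deposited columns used were the authors' signal per peak, the summit offset and the −log10 q-value. The last, as deposited by the authors, reaches a ceiling that all 1648 thresholded peaks and 4814 of the 30000 pooled peaks share, so peaks were ranked by the authors' signal. The thresholded set was checked to be the 1648 pooled peaks of highest signal.

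Genes came from Ensembl release 115 and sequence from the RefSeq copy of WBcel235, in which all 12 members have the same coordinates; coordinates are 1-based. Upstream windows of 100 bases were aligned without gaps from the most shared 8-base word, realigning each member to the others until nothing moved. Identity is from global alignment. Apart from members, genes annotated as snRNA were sorted into U1, U2, U4, U5 and U6 by short core sequences. Those that matched none of these classes, or several, were left out of the class counts. Binomial intervals are exact, at 95%, and reflect only the number of genes. The 2 replicates allow a spread but no test. Nothing in the labels beyond the word biological says how the replicates were grown.

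The members, gene lists and tests were chosen with earlier results of these data known. The rule on names gave 12 genes; the design had assumed the 10 annotated as snRNA, so counts for those are given beside the headline count. Named genes were all members, other genes within 500 bp of a member's summit, bound genes of the lists, and the 5 snRNA or SL RNA genes of most similar rank. piRNA genes near a summit are given as counts. T11F9.15, snx-13 and klp-16, which share a summit with a listed gene, were named after their values were seen. The window functions and the alignment were tested on simulated data. Python 3.11.15, pandas 2.3.3, scipy 1.17.1 and Biopython 1.88 were used. Alternatives were other windows, any overlap, distance to any base of the gene, the nearest summit, a stricter threshold, peaks shared with short noncoding genes left out, and each replicate alone. The short noncoding genes there did not include piRNA genes, so summits shared with piRNA starts were kept. The members annotated as snRNA, and each summit given to its nearest member, were added after the data were seen.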

Additional observations from a re-analysis of the deposited data

How the results depend on the processing

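Of 43 alternative values for the family's summary results, 39 stayed within the limits set for a change. These limits were wide. With replicate 1 left out, members whose strongest summit lay within 100 bp upstream fell from 9 to 6, which counted as within them. So did a median rank of 265 in place of 192. The bound count was 8 to 10 under every alternative run, including the 8 of the 10 members annotated as snRNA. No alternative left out summits for being shared with piRNA starts, as those of smy-8 to smy-12 are, so the count without them was not tested. With replicate 1 left out the median summit position was -18.0 bp, beside -47 bp without replicate 2 and -46.5 bp pooled; the cause was not tested. With only the 824 strongest thresholded peaks, the median percentile was 85.1 instead of 90.5, since a percentile there is taken over fewer peaks. The median of the members' strongest signals, 148 pooled, was 59.2 without replicate 1 and 98.5 without replicate 2, in lists whose scale may differ. Of 33 values at single members, 22 moved by more than the spread between replicates. Most of these set a pooled signal beside that of 1 replicate, such as 264 at smy-8 beside 128 and 149. As those scales may differ, such moves do not show how stable a member is. With the nearest summit in place of the strongest, only smy-1 and smy-4 moved. No paired analysis was possible because there is only 1 group. Depth is unknown, so the missing pooled summit at smy-5 is a summit not called at this depth. At smy-4 a pooled summit was called, at rank 4200, but it was not in the thresholded set.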

Other observations

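Annotated piRNA genes, which encode the 21U-RNAs of the germline, begin almost at the start of some SmY RNA genes. At 3 of the 12 members, smy-8, smy-10 and smy-12, a piRNA start lay within 5 bp of the member's start on the same strand. These were 21ur-3338 and 21ur-2046 at smy-8, 21ur-3398 at smy-10 and 21ur-458 at smy-12. The same held for 14 of 31563 genes other than piRNA genes (0.0444%) and for 11 of 4990 such genes on IV (0.220%), the members included. It held for 0 of the SL1, SL2, U1, U2, U4, U5 and U6 genes. The summits at these starts, at -43, -49 and -30 bp from smy-8, smy-10 and smy-12, cannot be told apart between the SmY RNA gene and the piRNA gene by position. Over all 15363 piRNA genes, 461 were bound in the thresholded set, a lower share than the 6.13% of other genes. In the pooled list of peaks and background regions, 78.3% of piRNA genes had a summit within 500 bp, as did 31.1% of other genes.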
